A study of Mus musculus with 6 samples.

Results

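*Gas6*, *Cyp7b1*, *Colec12* and *Tmem45a* were among the mRNAs that fell furthest when the long noncoding RNA *Ctcflos* was knocked down in primary brite adipocytes, and they are described here together with *Axl*, *Mertk* and *Tyro3*, the receptors of the Gas6 protein. The 4 lowered genes were selected on their log2 fold change between *Ctcflos* knockdown (KD) and control in these same libraries, and the 3 receptors were included for their function. The 7 genes are 7 of 52089 symbols in the deposited table and take up 42 of its lines, each line being 1 transcript accession. The 4 lowered genes and *Axl* passed a minimum mean of 1 RPKM (reads per kilobase of transcript, normalized for the sequencing depth of the library), as did 11701 genes in all, whereas *Mertk* and *Tyro3* lie below it.

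All libraries came from preadipocytes of the stromal-vascular fraction of inguinal white adipose tissue of 129SvEv mice. The cells were induced for 2 days and then differentiated for 1 day with rosiglitazone, a PPARγ agonist that promotes the brite (brown-in-white) program. They were reverse transfected with 50 nM of an LNA Gapmer antisense oligonucleotide (ASO), a short DNA oligonucleotide with locked nucleic acid ends that directs RNase H to its target RNA, and total RNA was harvested 24 h later. The *Ctcflos* KD group received ASO1, which is directed at *Ctcflos* transcript 1 according to the legends of the study, and the control group (NC ctrl) a nontargeting ASO, with 3 libraries each. Both groups thus share rosiglitazone and transfection, 1 targeting ASO was sequenced, and effects of losing *Ctcflos* cannot be told apart from effects of this ASO on other RNAs. The labels do not say whether the libraries of a group are separate cultures, so that p-values measure the spread between these libraries, which may be technical.

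Gas6 (growth arrest-specific 6) is a secreted vitamin K-dependent protein. Its Gla domain binds phosphatidylserine on membranes, its other end binds and activates the receptor tyrosine kinases Tyro3, Axl and Mertk (TAM receptors), and the system is known for the clearance of dying cells, cell survival and the damping of innate immune signals. Cyp7b1 is a cytochrome P450 of the endoplasmic reticulum that hydroxylates oxysterols and thereby serves the alternative pathway of bile acid synthesis and the supply of ligands for the receptor Gpr183. Colec12 is a membrane-bound scavenger receptor with a collagen-like stalk and a C-type lectin domain. Tmem45a is a multipass membrane protein whose function is less well understood.

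The groups matched their labels at the targeted RNA. *Ctcflos*, listed as 1300015D01Rik, had 0.0969, 0.0705 and 0.210 RPKM after KD (replicates 1, 2 and 3) against 0.748, 0.751 and 0.840 RPKM without, which left 12.4%, 9.04% and 26.9% of the control mean. KD replicate 3 thus kept the most *Ctcflos*, and it was also the shallowest KD library, with 60.8 mio mapped reads against 75.1 and 75.5 mio, while the controls had 62.9 to 79.2 mio. Summed macrophage markers set this library and control replicate 2 apart: the summed RPKM of 13 markers was 7.58, 7.65 and 24.5 in KD and 10.3, 37.4 and 10.2 in control libraries, and that of 6 smooth muscle and pericyte markers 52.2, 65.5 and 114 in KD and 78.1, 201 and 94.4 in control libraries. Not every macrophage marker followed the sum. *Cd68* was lowest in KD replicate 3 (4.12, 3.44 and 2.16 RPKM in KD), though highest in control replicate 2 among controls (0.657, 1.92 and 0.664 RPKM). Values without KD replicate 3, and without both of these libraries, are therefore given below for the 7 genes, the list counts and some of the list genes. Leaving out both is an alternative chosen after seeing the data, with 2 libraries left in each group. Adipocyte identity was clear from *Adipoq* at 826 RPKM in KD and 1187 RPKM in control libraries and *Fabp4* at 3291 and 4041 RPKM. Of the 7 brite markers, *Prdm16* (0.137 and 0.266 RPKM) and *Dio2* (0.410 and 0.197 RPKM) were near 0 in KD and control libraries, whereas *Ucp1* was at 20.7 and 50.5 RPKM, *Elovl3* at 42.6 and 75.5, *Cox7a1* at 5.14 and 7.59 and *Cidea* at 2.54 and 5.05.

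The 250 bases before the annotated start of *Gas6*, *Tmem45a* and *Axl* are shown, so that the promoters of 2 lowered genes can be read beside that of the most abundant Gas6 receptor. Sequences are from RefSeq (GRCm38.p6), 5′ to 3′ on the minus strand in all 3 cases, at chr8:13494536-13494785, chr16:56886164-56886413 and chr7:25788734-25788983, respectively. Capitals mark matches to 7 short motifs searched on both strands.

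Gas6: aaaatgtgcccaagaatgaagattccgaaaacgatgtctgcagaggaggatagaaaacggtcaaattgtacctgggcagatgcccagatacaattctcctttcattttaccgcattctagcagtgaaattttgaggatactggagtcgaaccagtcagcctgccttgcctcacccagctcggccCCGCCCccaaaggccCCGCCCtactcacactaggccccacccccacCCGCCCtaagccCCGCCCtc
Tmem45a: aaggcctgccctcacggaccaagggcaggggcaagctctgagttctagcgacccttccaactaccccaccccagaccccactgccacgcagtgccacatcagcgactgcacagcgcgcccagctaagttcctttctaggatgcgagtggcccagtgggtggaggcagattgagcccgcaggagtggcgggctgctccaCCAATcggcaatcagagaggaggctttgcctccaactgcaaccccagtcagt
Axl: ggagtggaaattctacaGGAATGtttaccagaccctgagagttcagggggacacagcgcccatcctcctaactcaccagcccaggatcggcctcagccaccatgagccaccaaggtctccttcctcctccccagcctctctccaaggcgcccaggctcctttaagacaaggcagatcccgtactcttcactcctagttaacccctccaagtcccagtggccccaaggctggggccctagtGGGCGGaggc

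The *Gas6* window held 4 GC boxes (GGGCGG), all on the other strand, at 66, 51, 20 and 8 bases before the start. *Tmem45a* had a CCAAT box at 52 bases, and *Axl* a GC box at 10 bases and GGAATG, the core of TEAD sites, at 233 bases. The windows of *Mertk* and *Tyro3* held 3 GC boxes each. A GC box occurs in 32.7% of 32851 mouse promoter windows of this length, CCAAT in 33.8% and GGAATG in 12.6%. The TATA box (TATAAA, 12.4% of windows), the E-box CACGTG (6.02%), the AP-1 site TGANTCA (6.75%) and the C/EBP site TTGCNNAA (9.56%) were not matched in these 5 windows, and no motif was shared by *Gas6* and *Tmem45a*. *Cyp7b1* and *Colec12* had no entry.

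In control libraries, the 4 lowered genes were well expressed, at percentiles of 79.4 to 87.9 of the genes tested. On the per-length RPKM scale, *Axl* was highest with a mean of 24.1, followed by *Colec12* (23.0), *Tmem45a* (17.4), *Cyp7b1* (13.6), *Gas6* (13.0), *Tyro3* (0.410) and *Mertk* (0.357). With RPKM averaged over the accessions of a gene, the only neighbours in this order whose control libraries did not overlap were *Gas6* and *Tyro3*. On RefSeq mRNAs alone, the controls of *Tyro3* (0.659, 0.753 and 0.686 RPKM) and *Mertk* (0.382, 0.352 and 0.430 RPKM) did not overlap either. The ligand and 1 receptor were thus expressed at RPKM above 10 on this scale, and the other 2 receptors below 1.

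In KD replicates 1, 2 and 3, *Gas6* RPKM was 2.06, 1.94 and 4.55, respectively, against 13.0, 13.2 and 12.8 in control libraries. The controls were close to each other, with an SD of 0.195 RPKM (n = 3), while KD replicate 3 exceeded the sum of the other KD libraries, so that the KD spread of *Gas6* was the widest of the 4 lowered genes. The mean fell to 22.0% of control, with a log2 fold change of -1.92 on the log2(RPKM + 1) scale used throughout (standard error 0.226). Without KD replicate 3 it was -2.22, and without both KD replicate 3 and control replicate 2, the libraries highest in summed macrophage markers, it was -2.21. The part of these cells in the value was not tested. In reads on its RefSeq mRNA NM_019521, *Gas6* had 403, 378 and 716 in KD and 2616, 2701 and 2080 in control libraries.

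*Cyp7b1* RPKM was 2.40, 2.72 and 3.45 in KD and 13.7, 11.2 and 15.9 in control libraries. Every KD library was far below every control, and the controls varied more among themselves than those of *Gas6*. The level left was 21.0% (log2 fold change -1.92, standard error 0.154). NM_007825 carried 367, 412 and 429 reads in KD against 2191, 1804 and 2045 reads.

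*Colec12* was at 4.60, 5.85 and 7.01 RPKM in KD and at 19.8, 25.6 and 23.6 RPKM in control libraries, leaving 25.3% (log2 fold change -1.82, standard error 0.159). It is the most abundant of the 4, and on NM_130449 the drop was from 5378, 6880 and 5054 reads to 1157, 1476 and 1467 reads. As for *Gas6* and *Cyp7b1*, KD replicate 3 had the highest value of the KD group.

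*Tmem45a* departed from that order, with 4.0, 4.9 and 3.9 RPKM in KD, where replicate 3 was lowest. Its controls were the most variable, at 18.8, 12.3 and 21.0 RPKM, with a low value in control replicate 2, the control highest in macrophage markers, in which *Cyp7b1* was lowest as well. The level left was 24.5% (log2 fold change -1.78, standard error 0.189). Reads on NM_019631 were 780, 951 and 640 in KD and 3869, 2599 and 3468 in control libraries.

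**Figure D1:**
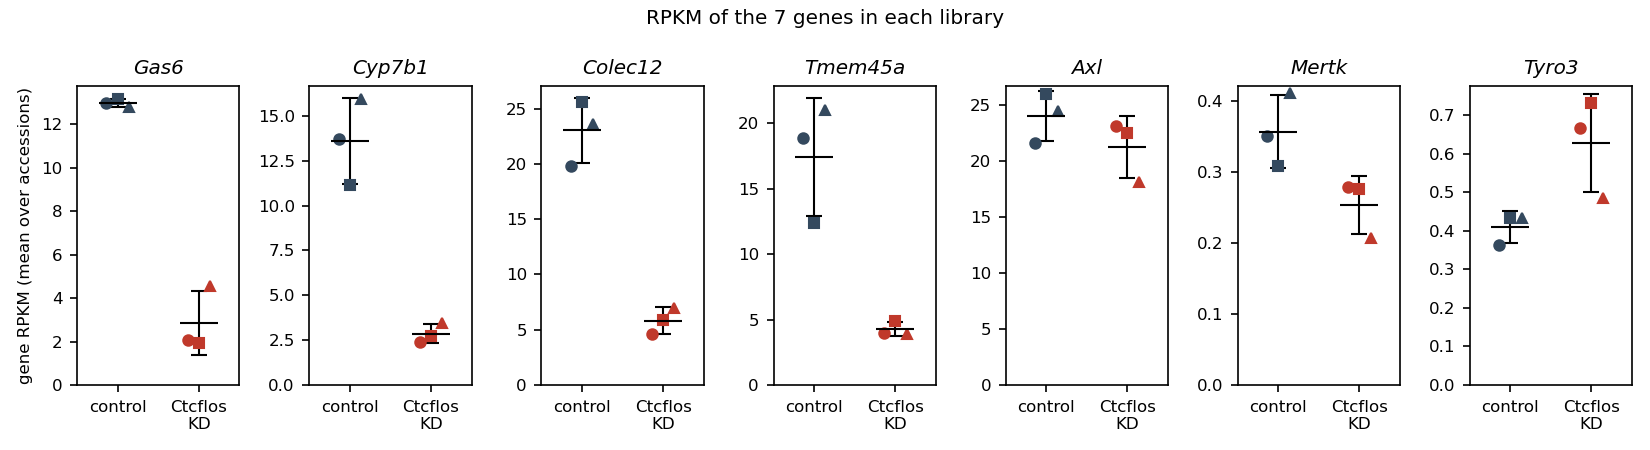
RPKM of each gene (y axes in RPKM, starting at 0, scaled per gene) in the 3 control and 3 *Ctcflos* KD libraries, with circles, squares and triangles for replicates 1, 2 and 3 and black lines for mean and SD. The KD libraries of the 4 lowered genes lie at 1.94 to 7.01 RPKM and their controls at 11.2 to 25.6 RPKM, and *Axl* overlaps. As means over their accessions, *Mertk* and *Tyro3* stay below 1 RPKM in all libraries. On its RefSeq mRNA alone, *Tyro3* had 1.23 and 1.21 RPKM in KD replicates 1 and 2.

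The fold changes of the 4 lowered genes carry no test, because the genes were chosen by them. The ranking took genes lower in KD without overlap of the groups and with an adjusted p under 0.05 by limma. Among these, the 4 ranked 2nd to 5th, behind *Gbe1*, the glycogen branching enzyme (-1.94), which is not among the 7. Just inside the limit stood *Tmem45a* (-1.78), and just outside it *Adam12*, a metalloprotease (-1.75), and *Csad*, an enzyme of taurine synthesis (-1.69), so that no gap sets the 4 apart. Of the 11701 genes tested, 21.9% had every KD library below every control, as all 4 had, and 12.4% were called lower at an adjusted p under 0.05 (limma, Benjamini-Hochberg), which is background to the choice and no support for it. The median log2 fold change of all genes tested was 0.028.

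**Figure D2:**
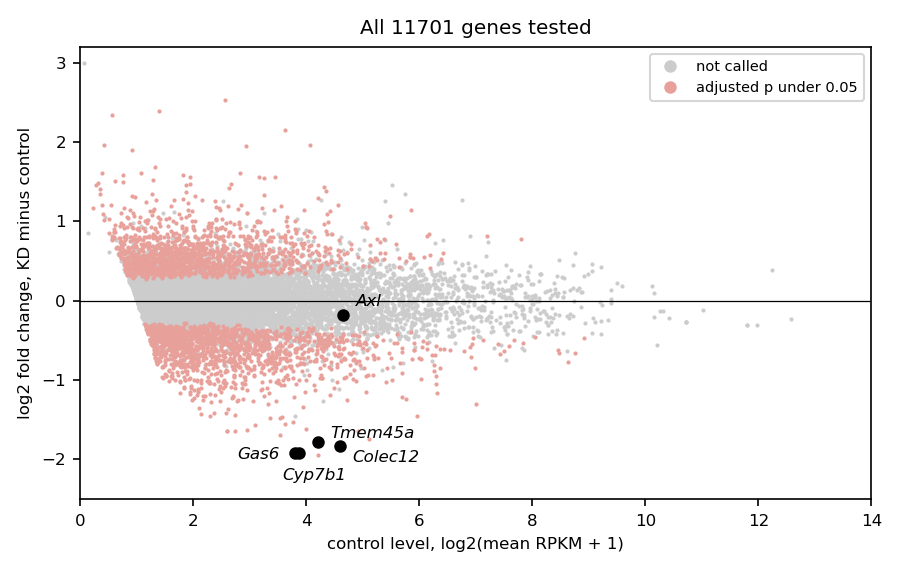
Log2 fold change (KD minus control) against the control level as log2(mean RPKM + 1) for all 11701 genes tested, with genes at an adjusted p under 0.05 in light red and the 5 of the 7 genes that passed the filter in black. *Gas6*, *Cyp7b1*, *Colec12* and *Tmem45a* lie between -1.92 and -1.78 at the lower edge, and *Axl* at -0.17 near the center.

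The extent of the drop differed between KD libraries. *Gas6* was left at 15.9%, 15.0% and 35.1% of the control mean in KD replicates 1 to 3, *Cyp7b1* at 17.6%, 20.0% and 25.4%, *Colec12* at 20.0%, 25.4% and 30.4%, and *Tmem45a* at 23.0%, 28.2% and 22.4%. *Gas6* followed the same order of libraries as residual *Ctcflos*, lowest in KD replicate 2 and highest in replicate 3, whereas the other 3 did not. Without KD replicate 3, the log2 fold change was -2.02 for *Cyp7b1*, -1.95 for *Colec12* and -1.73 for *Tmem45a*. Leaving out control replicate 2 as well gave -2.15, -1.87 and -1.94, respectively.

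**Figure D3:**
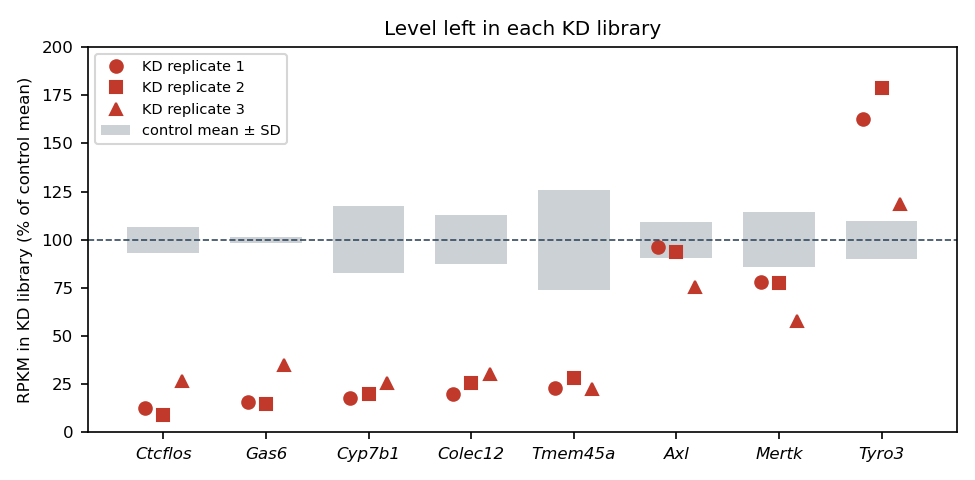
RPKM in each KD library as a percentage of the control mean (y axis, from 0) for *Ctcflos* and the 7 genes, with grey boxes for the control mean ± SD (n = 3). KD replicate 3 (triangles) keeps the highest share of *Ctcflos* (26.9%) and *Gas6* (35.1%), and it has the lowest values of *Axl* (75.3%), *Mertk* (57.9%) and *Tyro3* (118%).

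*Axl*, the main TAM receptor gene in these cells, did not pass the test. Its RPKM was 23.2, 22.6 and 18.1 in KD and 21.6, 26.1 and 24.5 in control libraries, with overlapping groups and the lowest value in KD replicate 3. On the log2 scale, KD differed from control by -0.17 (standard error 0.136, 95% confidence interval -0.49 to 0.14, adjusted p = 0.37 by limma over 11701 genes, of which 24.0% were called in either direction). An exact two-sided permutation test of the 6 values gave p = 0.3, where 3 against 3 libraries cannot go below 0.1. The interval does not reach a log2 fall of the size seen for *Gas6*, but it leaves room for a moderate loss or a slight gain. Without KD replicate 3 the value was -0.067, and without control replicate 2 as well it was -0.0097.

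*Mertk*, the receptor best known from phagocytes and the retinal pigment epithelium, was scarce. Its RPKM was 0.278, 0.276 and 0.207 in KD and 0.351, 0.309 and 0.411 in control libraries, with every KD library below every control. Of the genes that passed the filter, 21.9% had this pattern too. The change on the log2 scale was -0.11 (standard error 0.0655, adjusted p = 0.35 by limma without the filter, in which 4.71% of 38335 symbols were called), and the exact permutation test gave p = 0.1, the smallest possible. Taken from its RefSeq mRNA NM_008587 alone, with 81, 69 and 48 against 106, 99 and 96 reads, the log2 fold change was -0.14. Its adjusted p by limma was 0.048 in the fit of RefSeq mRNAs alone and 0.10 in the fit of all accessions without the filter. Over all gene-level alternatives, the adjusted p by limma ranged from 0.048 to 0.603. Without KD replicate 3 the log2 fold change was -0.086 (-0.11 without control replicate 2 as well).

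*Tyro3* pointed in the opposite direction without passing the test over all symbols. It was at 0.665, 0.732 and 0.485 RPKM in KD and at 0.363, 0.432 and 0.434 RPKM in control libraries. No KD library reached down to a control, and the share of all genes with that pattern was not computed. The mean was 1.53-fold higher in KD, with a log2 fold change of 0.20 (standard error 0.0943, 95% confidence interval -0.019 to 0.43, adjusted p = 0.25 by limma without the filter) and an exact permutation p of 0.1. KD replicate 3 was closest to the controls, and without it the log2 fold change was 0.27 (adjusted p = 0.10, within a range over alternatives of 0.0645 to 0.509), and without control replicate 2 as well it was 0.28 (adjusted p = 0.18 by limma). On NM_019392 there were 371, 361 and 208 reads in KD and 205, 238 and 172 reads in control libraries. Because a pseudocount of 1 exceeds these levels, the log2 values of *Mertk* and *Tyro3* understate their ratios.

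The 3 receptors can be compared by their share of the summed RPKM. *Axl* made up 96.1%, 95.7% and 96.3% of this sum in KD and 96.8%, 97.2% and 96.7% in control libraries. The groups did not overlap, with 96.0 ± 0.303% against 96.9 ± 0.296% (SD, n = 3, exact permutation p = 0.1). *Tyro3* contributed 2.81 ± 0.268% in KD and 1.65 ± 0.0536% in control libraries (SD, n = 3). RPKM of *Gas6* per summed receptor RPKM was 0.137 ± 0.0912 in KD and 0.525 ± 0.0481 in control libraries (SD, n = 3), a value that contains the *Gas6* drop used for the choice.

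The accessions of each gene overlap and share reads, so that they are no independent measurements, but they show whether different stretches of a transcript gave the same picture. Both accessions of *Gas6* carried the same reads and kept 22.0%. The 3 of *Cyp7b1* kept 20.9 to 21.2% and the 4 of *Colec12* 25 to 25.7%. Those of *Tmem45a* ranged from 23.2 to 30.6%, the highest being ENSMUST00000135672, a coding transcript of 2 exons at chr16:56825714-56831885 (GRCm38) with 41, 61 and 20 reads in KD and 155, 104 and 139 in control libraries. KD was below control without overlap in all 14 accessions of the 4 genes, which largely follows from their choice and is no support for it. Of all genes tested, 21.9% had every KD library below every control, and the share over all accessions was not computed.

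Of the receptors, 12 accessions of *Axl* passed the filter and 0 of 12 were called, with 85.7 to 96.8% of control and adjusted p from 0.30 to 0.80 (limma over 67403 accessions, of which 26.0% were called). The 2 values closest to control belonged to retained-intron transcripts toward the 3′ end of the gene, ENSMUST00000124442 and ENSMUST00000137211. None of the 7 accessions of *Mertk* and the 9 of *Tyro3* passed the filter. With KD replicate 3 left out, 1 of 13 receptor accessions past the filter was called by limma, beside 41.1% of all genes. With control replicate 2 left out as well 2 of 14 were, beside 39.1% of all genes. All those called were of *Tyro3*, and the share called over all accessions in these fits was not computed. *Mertk* accessions ranged from 67.2 to 134%, and both above 100% were GenBank clones with few reads, AK171320 with 45 in KD and 44 in control and AK037726 with 33 and 25. These reads hold for the shortest of 79 and 76 fitting lengths, respectively, and a longer one would give more. All 9 accessions of *Tyro3* were above control, at 127 to 194%, and the 4 without overlap were the longest ones, with 923 to 940 reads in KD. The share of all accessions with every KD library above every control was not computed.

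**Figure D4:**
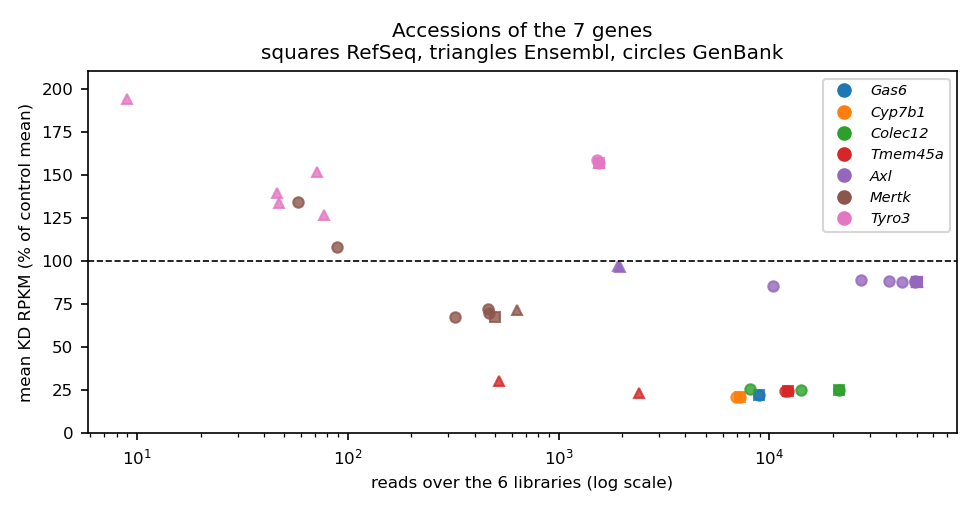
Mean KD RPKM of each of the 42 accessions as a percentage of its control mean (y axis) against its reads over the 6 libraries (x axis, log scale), colored by gene. The accessions of the 4 lowered genes lie at 20.9 to 30.6%, those of *Axl* at 85.7 to 96.8%, and the spread of *Mertk* and *Tyro3* accessions is widest at few reads.

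In the genome (GRCm38, Gencode vM21), *Gas6* spans 29.1 kb at chr8:13465374-13494490 (minus strand), *Cyp7b1* 171 kb at chr3:18071950-18243338 (minus), *Colec12* 175 kb at chr18:9707595-9882644 (plus) and *Tmem45a* 81.0 kb at chr16:56805161-56886166 (minus). The receptors lie at chr7:25757273-25788705 (*Axl*, 31.4 kb, minus), chr2:128698956-128802894 (*Mertk*, 104 kb, plus) and chr2:119797733-119818104 (*Tyro3*, 20.4 kb, plus). *Cyp7b1* and *Colec12* thus belong to the long genes, whose level was lower in KD across the table: of 920 tested genes of at least 100 kb, 45.0% were called lower (median log2 fold change -0.34), against 10.2% of the shorter ones (median 0.052; 9419 of the genes tested, or 80.5%, had a span). *Gas6* is short, and the part of gene length in the 4 values was not tested.

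Across the 6 libraries, the 4 lowered genes correlated with each other at Pearson r from 0.90 (*Gas6* and *Tmem45a*) to 0.98 (*Cyp7b1* and *Tmem45a*), a description in which the difference between the groups dominates. The profiles of log2(RPKM + 1) most like *Gas6* were those of *Plcb1*, *Sgcd* and *Ralgapa1*, most like *Cyp7b1* those of *Micu2*, *Tbc1d22a* and *Scfd2*, most like *Colec12* those of the transcript ENSMUST00000058336, *Wbp1* and *Ear2*, and most like *Tmem45a* those of *Lmf1*, *Pde4dip* and *Tor1aip2*. For these 12, r was 0.997 to 1.00 over 6 libraries. It exceeded 0.95 for 854 genes with *Gas6*, 780 with *Cyp7b1*, 539 with *Colec12* and 417 with *Tmem45a*.

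The lists of related genes are read against the 24.0% of all genes tested that were called in either direction. Those called lower made up 12.4% of all genes tested. Of 20 listed ligands, Gla proteins and vitamin K cycle genes, 10 were tested, of which 1 was higher and 1 lower (2 of 10, or 20.0%, near the background of 24.0%; median log2 fold change -0.20). *Calu*, whose product calumenin binds calcium in the secretory pathway and inhibits the vitamin K-dependent carboxylation system, fell from 81.3 to 45.2 RPKM (-0.85, adjusted p = 0.015 by limma). *Prrg3*, which encodes a membrane protein with a Gla domain, rose from 0.597 to 1.84 RPKM (0.80, adjusted p = 0.023 by limma). *Pros1*, the other TAM ligand (protein S), had 4.16, 4.31 and 4.61 RPKM in KD and 5.22, 5.30 and 5.36 RPKM in control libraries (-0.23, adjusted p = 0.091 by limma). Without KD replicate 3 *Pros1* was called lower (-0.27, adjusted p = 0.038 by limma), where 41.1% of all genes were called. Without control replicate 2 as well it was not called (-0.27, adjusted p = 0.055 by limma). The carboxylase *Ggcx* (-0.24, adjusted p = 0.085) and the vitamin K reductase *Vkorc1* (-0.24, adjusted p = 0.14) did not pass the limma test. Like *Pros1*, both had every KD library below every control, as had 21.9% of all genes tested.

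Of 26 genes of phosphatidylserine recognition and engulfment, 14 were tested, 1 was higher and 3 were lower (4 of 14, or 28.6%, against 24.0% of all genes; median -0.13). *Ano6*, a scramblase that exposes phosphatidylserine, fell from 4.76 to 1.87 RPKM (-1.02, adjusted p = 0.0059 by limma). *Calr* (calreticulin, -0.63) and *Elmo2*, an activator of Rac together with Dock proteins (-0.42), fell too, while *Rac1* itself rose (0.44). *Mfge8*, a bridging protein that binds phosphatidylserine as Gas6 does but engages integrins, was at 22.0 ± 4.60 RPKM in KD and at 20.3 ± 1.07 RPKM in control libraries (SD, n = 3, adjusted p = 0.70 by limma).

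Downstream of the receptors, 18 of 21 genes were tested, 2 were higher and 2 were lower (4 of 18, or 22.2%, against 24.0% of all genes; median -0.041). *Pik3r1*, a regulatory subunit of PI3-kinase, fell from 28.3 to 16.3 RPKM (-0.76, adjusted p = 0.011 by limma), and the kinase *Akt2* from 10.5 to 6.43 RPKM (-0.63, adjusted p = 0.015 by limma). *Grb2*, an adaptor that binds activated Axl (0.56), and the transcription factor *Twist1* (0.40) rose. The sheddases of Axl and Mertk were not called, *Adam10* at -0.022 (adjusted p = 0.91) and *Adam17* at -0.24 (adjusted p = 0.18, limma).

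Around *Cyp7b1*, 11 of 24 genes of oxysterol and bile acid synthesis were tested, 0 were higher and 1 was lower (1 of 11, or 9.09%, against 24.0% of all genes; median 0.012). This was *Hsd3b7*, the dehydrogenase that acts on the products of Cyp7b1, at 3.36, 2.87 and 3.26 RPKM in KD and 5.85, 4.83 and 5.34 RPKM in control libraries (-0.61, adjusted p = 0.0092 by limma). *Ch25h*, which makes a substrate of Cyp7b1, had 11.2, 13.4 and 3.58 RPKM in KD and 3.36, 5.32 and 5.86 RPKM in control libraries. KD replicate 3 lay among the controls, and the gene was not called (log2 fold change 0.70, adjusted p = 0.23 by limma). It was called higher without KD replicate 3 (1.21, adjusted p = 0.0031 by limma), as it was without control replicate 2 as well (1.28, adjusted p = 0.0083 by limma). *Cyp27a1* and the receptor gene *Gpr183* were below 0.3 RPKM in every library.

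Around *Colec12*, 7 of 25 scavenger receptors and collectins were tested and 2 were called (28.6%, against 24.0% of all genes). *Cd68*, a lysosomal glycoprotein abundant in macrophages, rose from 1.08 to 3.24 RPKM (1.05, adjusted p = 0.023 by limma), and *Scarb1*, the receptor for high-density lipoprotein, fell from 15.1 to 11.2 RPKM (-0.39, adjusted p = 0.048 by limma; median of the list -0.17). Of the class A scavenger receptors related to Colec12, all under the filter, *Scara5* had 0.341, 0.336 and 0.236 RPKM in KD and 1.01, 0.496 and 1.11 RPKM in control libraries. *Scara3* had 0.390, 0.436 and 0.719 RPKM in KD and 0.675, 1.18 and 0.753 RPKM in control libraries (means 0.515 and 0.870). *Msr1* had 0.0297, 0.0147 and 0.367 RPKM in KD and 0.189, 0.911 and 0.0871 RPKM in control libraries (means 0.137 and 0.396). The groups of *Scara3* and *Msr1* overlapped, and both were highest in KD replicate 3 and control replicate 2 within their groups. Of the relatives of Tmem45a, *Tmem45b* was at 0.405, 0.387 and 0.450 RPKM in KD and 1.12, 0.724 and 1.15 RPKM in control libraries, and *Tmem45a2* at 0.0443 and 0.0784 RPKM, none of them tested.

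These list counts rest on few libraries. Leaving out control replicate 3 or control replicate 1 lowered the genes called in all from 2803 to 369 or 421, and leaving out KD replicate 3 raised them to 4810 (41.1%), so that the counts of the lists ranged from 0 to 8 genes. In that fit, the called genes were 4 TAM ligands and Gla proteins, 5 of phosphatidylserine recognition, 8 of TAM signalling, 4 of oxysterol synthesis and 2 scavenger receptors. Without control replicate 2 as well, they were 5, 5, 6, 5 and 3, with 39.1% of all genes called.

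**Figure D5:**
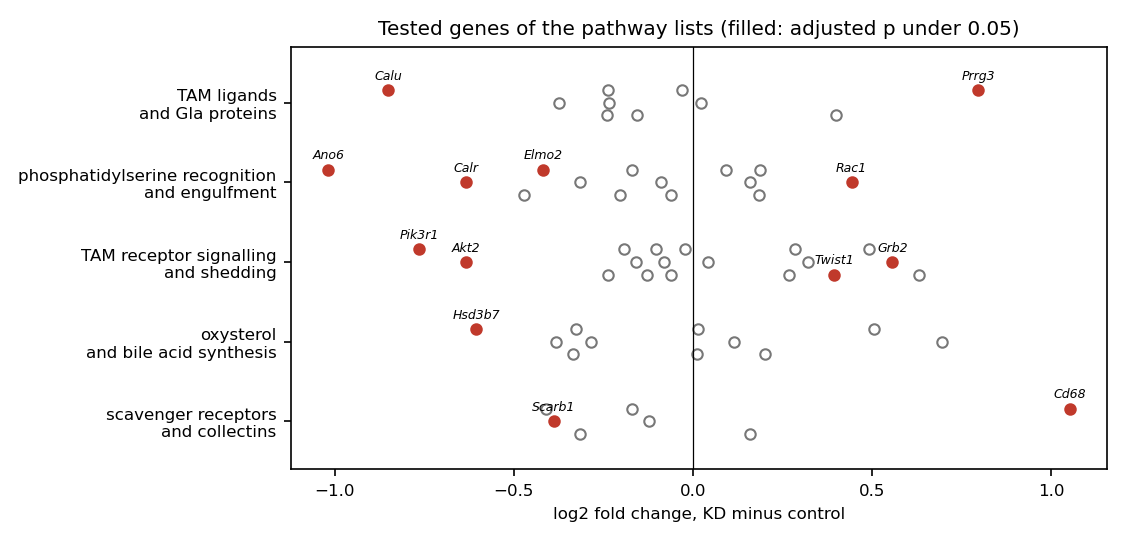
Log2 fold change (KD minus control, x axis) of each tested gene of the 5 pathway lists, 1 row per list, with genes at an adjusted p under 0.05 filled and named and vertical offsets without meaning. *Ano6* (-1.02) lies furthest to the left and *Cd68* (1.05) furthest to the right, and most genes lie unfilled around 0.

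Markers of cells that could contribute the 7 genes are given beside them, since in bulk libraries fewer cells of a type and less RNA per cell cannot be told apart. Their counts stand beside 24.0% of all genes tested called in either direction, with 12.4% of all genes tested called lower and the rest of the calls higher. Of 13 macrophage markers, 3 passed the filter and 1 was called (*Cd68*, higher; 33.3%). The highest sums were those of KD replicate 3 and control replicate 2 given above, with *Ptprc* (0.00199 and 0.0327 RPKM) and *Adgre1* (0.0616 and 0.170 RPKM) near 0. Of 7 endothelial markers, 0 passed the filter, with a sum of 0.696 to 1.26 in KD and 1.34 to 1.74 RPKM in control libraries. Of 6 smooth muscle and pericyte markers, 2 were tested and 0 called, with sums of 52.2 to 114 and 78.1 to 201 RPKM. Of 8 progenitor markers, 5 were tested and 1 was lower (20.0%), *Pdgfra* (-0.69, adjusted p = 0.010 by limma), with sums of 185 to 406 and 282 to 456 RPKM. Of 7 brite markers, 5 were tested and 3 were lower (60.0%), *Ucp1* (-1.21), *Elovl3* (-0.81) and *Ppargc1a* (-0.55), with sums of 62.1 to 81.7 and 109 to 166 RPKM. Of 9 adipocyte markers, 1 was lower (11.1%), *Cebpa* (-0.89), with sums of 4585 to 6060 and 6241 to 6903 RPKM. Their part in the values of the 7 genes was not tested.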

How the data were processed

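The 6 libraries were RNA-seq of total RNA. The authors deposited 1 table of RPKM, with replicates kept apart. How it was made, its counting and its use of strand are not given in the sources used here. Removal of 305 exact repeats left 168021 lines. Depth was recovered from whole multiples of 1 read in low values of Ensembl transcripts (at least 95.0% whole within 0.05 reads), and reads on an accession from the shortest length that made all 6 values whole, or from the Gencode vM21 length where that did. Many accessions had more than 1 fitting length, such as 5 for NM_019521 of *Gas6* and 12 for NM_008587 of *Mertk*. Their reads are therefore estimates.

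RPKM was averaged over the accessions of a symbol, and log2(RPKM + 1) was fitted with limma-trend for genes whose mean reached 1, and p-values were adjusted by Benjamini-Hochberg over all of them. *Mertk* and *Tyro3* come from a fit without the filter. Tested on simulated data with 11701 genes, the fit recovered 196 of 200 genes given a log2 change of 1 and made 10 false calls. The simulation gave every gene the same independent noise and held no deviating library, so that these rates do not carry over to the data. Members, lists and tests were chosen with earlier results of these data known. The genes named are the 7, called list genes and direct partners, the 3 genes most correlated with each lowered gene, the next in rank, relatives and markers for the check of cell types, and *Ctcflos*. Alternatives were a pseudocount of 0.1, no filter, median-of-ratios scaling, a replicate block, the highest accession per gene, and each library left out. RefSeq accessions alone were tried for gene-level results and for the share of *Axl*, the latter chosen after seeing the data, as was leaving out both KD replicate 3 and control replicate 2. Spans of genes are from Gencode vM21, 470 of them through an older symbol. Of the genes in the lists, 1 is not reported here. Promoters were matched by symbol for 5 of the 7 genes. R 4.3.3, limma 3.58.1, Python 3.11.15, pandas 2.3.3 and scipy 1.17.1 were used.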

Additional observations from a re-analysis of the deposited data

How the results depend on the processing

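Over 179 alternatives for 15 results, 136 kept direction and side of the threshold, 42 moved, 1 passed the threshold anew and 0 reversed. The log2 fold changes of the lowered genes kept their sign in 52 of 52. Because the genes were chosen for large falls in these same libraries, this follows from their choice and is no support for it. The only one to move by more than the replicate spread was *Cyp7b1*, at a pseudocount of 0.1 (-2.21) and without KD replicate 3 and control replicate 2 (-2.15). That pair left out gave 4577 genes called in all (39.1%), 5 of 11 tested TAM ligands and Gla proteins, 5 of 11 oxysterol genes and 2 of 14 receptor accessions. Each library left out gave -2.22 to -1.76 for *Gas6*, -2.04 to -1.80 for *Cyp7b1*, -1.95 to -1.69 for *Colec12*, -1.99 to -1.63 for *Tmem45a*, -0.25 to -0.067 for *Axl*, -0.14 to -0.085 for *Mertk* and 0.16 to 0.27 for *Tyro3*. RefSeq accessions alone gave *Mertk* -0.14 (adjusted p = 0.048 by limma) and an *Axl* share of the receptors that differed by -1.62 percentage points (KD minus control). With the filter, they gave 5 called of 11 tested TAM ligands and Gla proteins, beside 2836 of 9343 genes called in all. Scavenger receptors and collectins had 1 called of 7 tested genes at a pseudocount of 0.1, beside 2746 of 11701 genes in all. With the highest accession per gene they had 4 of 10, beside 3007 of 12787 genes in all.

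The genes called in all were 1807 without the filter and 369 to 4810 with each library left out, for which 0 to 4 TAM ligands and Gla proteins, 1 to 5 phosphatidylserine genes, 0 to 8 TAM signalling genes, 0 to 4 oxysterol genes, 0 to 2 scavenger receptors and 0 to 1 receptor accessions were called. The causes were not tested. Replicate numbers are shared by the groups, but same-numbered libraries did not deviate together (correlations 0.29, -0.29 and -0.42). With the replicate block, 1671 genes were called, among them 2 of TAM signalling and 1 scavenger receptor. Not every alternative applied: *Mertk* and *Tyro3* are already reported without a filter. With 48 to 371 reads per library on their RefSeq mRNA, *Mertk* and *Tyro3* are measured less precisely than *Axl*.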
